A study of Mus musculus with 23 samples.

Results

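The immediate early and early response genes are a set of 34 genes that cells switch on within a short time of a stimulus. They were taken by symbol from a fixed list, and all 34 of 34 listed genes were among the 18876 genes of the deposited count table. The set held 8 AP-1 and ATF factors, 6 EGR and NR4A factors, 5 KLF, MYC and CSRNP factors, 4 feedback genes of NF-kB and 11 phosphatases, RNA decay factors and other signalling feedback genes. All 34 passed the filter on low counts that left 18759 genes to test. Members were matched by symbol, without a threshold on level or fold change.

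Immediate early genes need no newly made protein for their first burst of transcription. Kinases of the MAPK family act through SRF and its ternary complex partners, calcium and cAMP act through CREB, and cytokine or pattern receptors act through NF-kB, and each route reaches a part of the set. Many of the products are transcription factors that drive a later wave of genes, and others are phosphatases, RNA decay factors and NF-kB inhibitors that end the signal. In microglia the same genes answer to inflammatory stimuli, and they are also known to be induced when brain tissue is digested with enzymes at body temperature, as it was for these samples.

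RNA was sequenced in bulk from CD11b+ cells, mostly microglia, that were isolated magnetically from both hippocampi of female mice. Every mouse carried Slc11a2 fl/fl and 1 copy of Cx3cr1-CreERT2, a tamoxifen-activated Cre driven by the promoter of a receptor gene that other macrophages also use, on a mixed 129S;C57BL/6J background. Slc11a2 encodes DMT1, an importer of iron. Knockdown (Slc11a2-KD) was induced at 5 to 6 months with gavaged tamoxifen, 4 mg on each of 5 days. Corn oil alone (200 µL) was given to Control animals, so knockdown and tamoxifen cannot be told apart. APP/PS1 mice carried transgenes for mutant amyloid precursor protein and presenilin, and WT mice did not. Cells were collected at 15 to 18 months. In use were 6 WT and 6 APP/PS1 libraries of Control mice, and 5 of each genotype of Slc11a2-KD mice. The study removed 1 Control APP/PS1 library as an outlier without naming it in its text. It was taken here to be library 10, which was left out. The study also described Slc11a2-KD APP/PS1 library 4 as varying from the rest of its group. It did not class library 4 as a statistical outlier but showed further results without it. Library 4 was kept here.

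The libraries are numbered 1 to 23, and the numbers form blocks that differ in treatment. Libraries 1 to 4 were Slc11a2-KD (WT in 1, 2 and 3, APP/PS1 in 4), libraries 5 to 17 were all Control, and libraries 18 to 23 were Slc11a2-KD again (WT in 19 and 22, APP/PS1 in 18, 20, 21 and 23). The labels do not say what the blocks stand for, so the difference between blocks and the knockdown cannot be told apart when Control and Slc11a2-KD are compared. Within the Slc11a2-KD mice the blocks 1 to 4 and 18 to 23 can be compared directly. The 22 libraries held 31128643 to 54872491 counts, and p-values measure the spread between these libraries.

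Several facts of the whole series touch the results. The summed level of 11 measured microglial markers was high in all libraries, from 38777 to 57963 CPM (counts scaled to the size of each library), and Fcrls was the only one of 12 not in the table. Choroid plexus epithelium markers summed to 1.09 to 5.34 CPM in the Control libraries apart from Control WT 12 (1877 CPM) and 15 (973 CPM), to 2.30 to 49.1 CPM in libraries 1 to 4 and to 85.9 to 753 CPM in libraries 18 to 23. Mitochondrial genes took 0.975 to 3.0% of counts. The gene total of Slc11a2 was not called lower in the Slc11a2-KD libraries (34.2 ± 4.75 CPM against 35.1 ± 5.13 CPM in WT and 56.5 ± 13.5 CPM against 43.2 ± 3.93 CPM in APP/PS1, mean ± SD). Gene totals do not resolve the deleted exons, so directions below follow the labels.

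Promoters of 29 of the 34 members were found in the RefSeq table (GRCm38.p6), which gives 250 bases before to 50 bases after the start of transcription. Egr1, Egr3, Ier2, Myc and Nfkbiz had no entry. The CRE core TGACG, the EGR motif GCGNGGGCG, the AP-1 motif TGANTCA, the NF-kB motif (GGG, any 2 bases, TTTCC) and the SRF-binding CArG box were searched on both strands. Of the members called below that had an entry, the 6 whose promoter held a match are shown in lower case, with every match in capitals. Jun, Jund and Ier3 were also called, held no match and are not shown. Shown are Fos, Fosb, Klf4, Tnfaip3 and Zfp36, which were lower in libraries 18 to 23 than in 1 to 4. Dusp2, also shown, was higher in Slc11a2-KD APP/PS1 than in Slc11a2-KD WT. Capitals mark TGACG in Fos (129 and 66 bases before the start), TGACG and then the EGR motif in Fosb, TGACG and then 2 EGR motifs in Klf4, TGACG, the AP-1 motif and the NF-kB motif in Tnfaip3, the EGR motif and the CArG box in Zfp36, and the EGR motif and then TGACG in Dusp2. Matches on the other strand read as their reverse complement.
Fos (chr12:85473640-85473939, plus strand): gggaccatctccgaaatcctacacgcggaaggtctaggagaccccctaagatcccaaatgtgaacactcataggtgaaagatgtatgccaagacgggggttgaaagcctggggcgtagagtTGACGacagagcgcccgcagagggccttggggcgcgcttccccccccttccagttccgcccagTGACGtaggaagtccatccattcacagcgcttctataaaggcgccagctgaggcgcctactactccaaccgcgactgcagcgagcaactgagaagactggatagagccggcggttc
Fosb (chr7:19309996-19310295, minus strand): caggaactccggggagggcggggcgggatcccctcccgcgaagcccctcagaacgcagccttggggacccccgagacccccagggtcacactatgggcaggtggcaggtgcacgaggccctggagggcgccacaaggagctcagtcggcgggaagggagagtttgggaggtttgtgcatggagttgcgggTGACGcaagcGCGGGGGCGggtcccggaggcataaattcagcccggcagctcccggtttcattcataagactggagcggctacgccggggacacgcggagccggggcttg
Klf4 (chr4:55532426-55532725, minus strand): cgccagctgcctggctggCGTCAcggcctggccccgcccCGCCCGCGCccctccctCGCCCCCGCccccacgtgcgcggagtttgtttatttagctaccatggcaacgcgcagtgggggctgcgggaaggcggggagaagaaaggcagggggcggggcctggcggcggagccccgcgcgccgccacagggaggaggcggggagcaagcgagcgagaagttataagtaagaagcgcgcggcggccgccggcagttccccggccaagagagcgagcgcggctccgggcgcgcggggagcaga
Tnfaip3 (chr10:19015361-19015660, minus strand): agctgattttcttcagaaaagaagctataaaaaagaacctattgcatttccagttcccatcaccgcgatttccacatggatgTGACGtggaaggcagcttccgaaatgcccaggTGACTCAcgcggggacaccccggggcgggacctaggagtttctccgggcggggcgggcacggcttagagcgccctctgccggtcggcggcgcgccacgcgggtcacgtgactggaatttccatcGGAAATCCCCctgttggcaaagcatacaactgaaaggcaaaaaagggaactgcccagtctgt
Zfp36 (chr7:28379179-28379478, minus strand): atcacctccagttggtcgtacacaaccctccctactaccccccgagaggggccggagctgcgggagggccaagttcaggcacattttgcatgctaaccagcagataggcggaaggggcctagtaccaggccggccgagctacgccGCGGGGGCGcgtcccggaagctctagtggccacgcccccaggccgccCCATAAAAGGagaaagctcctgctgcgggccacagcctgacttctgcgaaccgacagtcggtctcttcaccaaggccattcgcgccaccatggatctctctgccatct
Dusp2 (chr2:127335909-127336208, plus strand): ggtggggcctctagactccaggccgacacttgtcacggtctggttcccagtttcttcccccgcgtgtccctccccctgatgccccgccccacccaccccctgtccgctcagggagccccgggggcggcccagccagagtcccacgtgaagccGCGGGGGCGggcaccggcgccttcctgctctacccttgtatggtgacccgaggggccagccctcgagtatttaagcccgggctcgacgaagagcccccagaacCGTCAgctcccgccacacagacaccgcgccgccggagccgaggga

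TGACG occurred in 15 of the 29 member promoters (51.7%) and in 20.8% of all 32851 promoters of the same length. Its full palindrome TGACGTCA, which holds TGACG on both strands, occurred in Btg2 and Dusp1 (6.9% against 1.79%). The EGR motif was in 11 promoters (37.9% against 5.55%), the NF-kB motif in 3 (10.3% against 1.63%; Tnfaip3, Nfkbia and Dusp5) and the CArG box in 2 (6.9% against 1.63%; Zfp36 and Dusp5). TGANTCA, the site that FOS and JUN dimers bind, was in Tnfaip3 alone (3.45% against 7.81%). These counts describe letters in a short window and were not tested. Egr2, Ier3, Ier5, Jun, Jund, Klf6, Maff, Nfkbid and Rhob held none of the searched motifs there.

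Scaled by transcript length, the members spanned a wide range of levels. Rhob, a small GTPase, was highest with a median of 1494 CPM per kb over the 22 libraries, followed by Nfkbia at 1238, Junb at 877, Dusp1 at 785 and Fos at 700 CPM per kb. The ranges of these 5 over libraries overlapped. At the other end stood Nr4a3 at 0.937 and Nr4a2 at 0.238 CPM per kb, both nuclear receptors without a known ligand. Klf4 (15.9), Gadd45b (14.8), Egr2 (13.8), Dusp5 (13.4) and Myc (12.2 CPM per kb) lay close together in the lower part, and their ranges over libraries overlapped as well. Summed over the 34, the set took 1.25 to 3.27% of all counts in a library.

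Levels of the set varied more between libraries of one group than those of other genes. The SD of log2 CPM within groups had a median of 0.61 for the 32 members with a mean of at least 10 CPM and of 0.29 for all 7897 genes at that level. The steadiest members were Dusp1 (0.27), a phosphatase that switches off MAP kinases, Socs3 (0.27), an inhibitor of cytokine signalling, and Zfp36 (0.27), which encodes the RNA decay factor tristetraprolin. Klf4 (1.4), Maff (1.34), Atf3 (1.33), Nr4a1 (1.13) and Gadd45b (1.12) spread most among the 32. Atf3, a stress-induced ATF factor, ran from 63.8 CPM in library 19 to 1739 CPM in library 15.

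**Figure D1:**
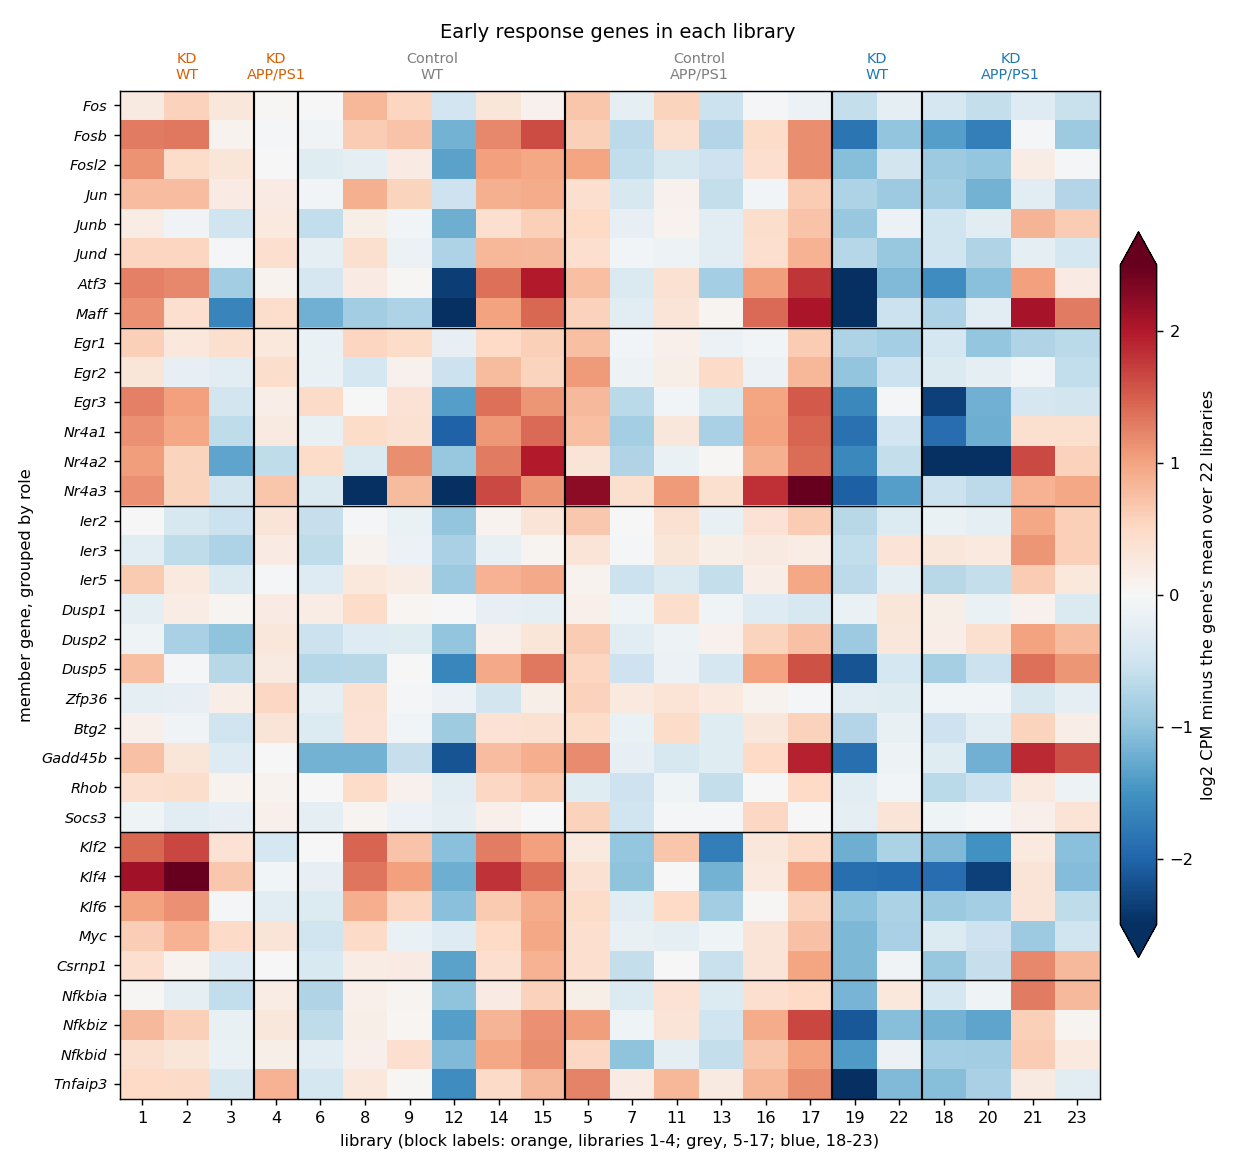
Level of each of the 34 members (rows, grouped by role) in each of the 22 libraries (columns, by number block, treatment and genotype), as log2 CPM minus the gene's mean over the 22 libraries; colours are clipped at both ends of the scale. Libraries 12 and 19 are blue in nearly every row, libraries 15 and 17 red in most, and libraries 21 and 23 are red for Maff, Gadd45b and Nfkbia but blue for Egr1 and Myc.

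Most members moved together from library to library. In library 19 (Slc11a2-KD WT) and library 12 (Control WT) 0 of the 34 members lay above their mean over all libraries, and the median deviation of the members from it was -1.09 and -1.02 log2 units. In library 15 (Control WT) 32 members lay above their mean (median deviation 0.92), in library 17 (Control APP/PS1) 31 (0.84) and in library 14 (Control WT) 31 (0.78). Library 12 held the lowest value of 11 members and library 19 of 10, while library 17 held the highest value of 10 members, libraries 15 and 21 of 7 each and library 5 of 5. The median of all tested genes deviated by -0.20 to 0.08 over the 22 libraries and was lowest in libraries 21 (-0.20) and 23 (-0.17).

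Groups and blocks overlapped widely on this summary. The summed level of the set ran from 12767 to 31130 CPM in WT and from 15378 to 30031 CPM in APP/PS1 among Control mice. In Slc11a2-KD it ran from 12170 to 26238 CPM in WT and from 13976 to 27138 CPM in APP/PS1. By block, the medians were 24002 CPM in libraries 1 to 4, 23382 CPM in libraries 5 to 17 and 15768 CPM in libraries 18 to 23, of which library 21 was the highest at 27138 CPM. Control WT libraries 12 and 15, the 2 Control libraries with choroid plexus markers, were the lowest and the highest Control WT library on the summed level of the set.

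**Figure D2:**
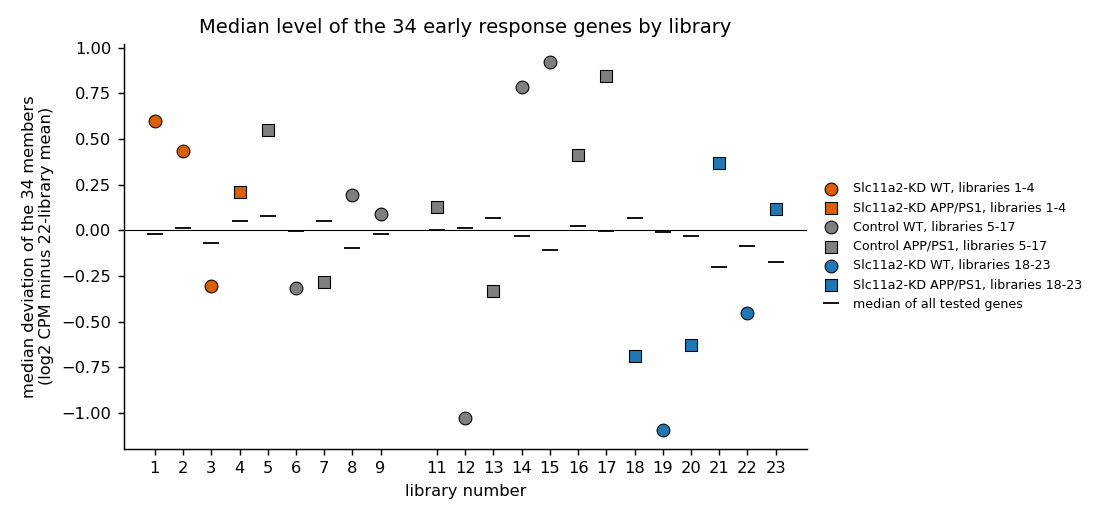
Median deviation of the 34 members (log2 CPM minus each gene's mean over 22 libraries, vertical axis) by library number (horizontal axis); circles are WT and squares APP/PS1, colour gives the number block, and short bars give the median of all tested genes. Libraries 18, 19, 20 and 22 lie between -1.09 and -0.45, libraries 21 and 23 at 0.37 and 0.12.

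Within the Slc11a2-KD mice, 9 members were lower in libraries 18 to 23 than in libraries 1 to 4 and 0 were higher (edgeR quasi-likelihood test with a genotype term, Benjamini-Hochberg adjusted over all genes). Of all genes tested, 24% were called in this comparison, 12.7% lower and 11.3% higher, against 26.5% of the members called, all lower. The median log2 fold change was -0.70 over the members and -0.005 over all genes, and 30 of 34 members had a negative sign. DESeq2 called 11 members lower and 0 higher, beside 17% lower and 17.2% higher of the 15823 genes to which it gave an adjusted p. An unadjusted p under 0.05 was reached by 15 members in the downward direction (17.9% of genes) and by 1, Ier3, in the upward direction (16.8% of genes). The 9 were Fos, Fosb, Jun and Jund of AP-1, Egr1, Klf4, Myc, Tnfaip3 and Zfp36. In bulk RNA, fewer expressing cells and less RNA per cell cannot be told apart.

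For 6 members, Fos, Fosb, Jun, Jund, Egr1 and Myc, every library of 18 to 23 lay below every library of 1 to 4 (17.6% of members, beside 10.1% of all genes). No member lay above in all (0 of 34, beside 7.3% of genes). Unlike the test, these counts do not hold genotype, and the blocks differ in their mix of WT and APP/PS1. The 12 Control libraries spanned the range of libraries 1 to 4 for all 6 of these genes. The same libraries 18 to 23 also held more choroid plexus marker counts (6 of 8 markers called higher). Of 4 monocyte markers 2 were called higher, Ccr2 (1.40 ± 0.39) and Ly6c2 (1.73 ± 0.63), of 6 border macrophage markers 2 were higher (Ms4a7 and Pf4) and 1 lower (Cd163), of 5 endothelial markers 1 was lower (Pecam1), and of 11 microglial markers 3 were higher (Gpr34 and Aif1 among them) and 3 lower (Csf1r, Cx3cr1 and Sall1). No marker of neutrophils, lymphocytes, neurons, astrocytes or oligodendrocytes was called by edgeR. The mitochondrial share of libraries 18 to 23 had a median of 1.99% against 1.59% in libraries 1 to 4. The part of any of these in the difference was not tested.

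Of the 8 AP-1 and ATF factors, which include the FOS and JUN proteins that pair as dimers, 4 fell in libraries 18 to 23 (12.7% of all genes did) and all 8 had a negative sign. Fos (chr12:85520658-85524047, plus strand, GRCm39) stood at 1765, 2228, 1834 and 1536 CPM in libraries 1 to 4, at 989 to 1279 CPM in libraries 18 to 23 (median 1073 CPM) and at 1033 to 2668 CPM in Control (median 1552 CPM). All 6 later libraries lay below the 4 earlier ones, and 3 of them lay below the lowest Control library. The log2 fold change was -0.67 ± 0.24 (SE), or 0.63 times the level (adjusted p = 0.045). This call was lost when any of libraries 1, 2, 3, 4, 19, 20, 22 or 23 was left out, with log2 fold changes of -0.78 to -0.55 and adjusted p up to 0.16. It was also lost with DESeq2 size factors (-0.62, adjusted p = 0.062) and with library 10 kept (-0.67, adjusted p = 0.060).

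Fosb (chr7:19036621-19043976, minus strand), another FOS factor, was at 906, 917, 391 and 362 CPM in libraries 1 to 4 and at 104 to 357 CPM in libraries 18 to 23 (median 163 CPM), with Control at 163 to 1144 CPM (median 533 CPM). The highest later library, 21, lay just below library 4, and the other 5 were at 195 CPM or below. Fosb fell to 0.29 times the level (log2 fold change -1.80 ± 0.55, adjusted p = 0.018). Without library 19 the value was -1.40 (adjusted p = 0.10) and without library 22 it was -1.80 (adjusted p = 0.084).

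Jun (chr4:94937271-94940459, minus strand), the founding JUN factor and target of the kinase JNK, was at 1908, 1904, 1292 and 1297 CPM in libraries 1 to 4. In libraries 18 to 23 it was at 496 to 921 CPM (median 635 CPM), and 5 of these 6 lay below the lowest Control library (739 CPM; Control median 1359 CPM). Jun fell to 0.42 times the level, with a log2 fold change of -1.24 ± 0.29 (adjusted p = 0.0032). Jund (chr8:71151599-71153265, plus strand), a JUN factor that most cells express at rest, was at 399, 402, 271 and 367 CPM in libraries 1 to 4 and at 143 to 236 CPM in libraries 18 to 23 (median 182 CPM; Control 162 to 501 CPM). Its blocks did not overlap, and the log2 fold change was -1.07 ± 0.28 (adjusted p = 0.0066). Both calls held under every alternative run.

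The other AP-1 and ATF members had negative signs without a call. Fosl2 had a log2 fold change of -1.01 (adjusted p = 0.14), Atf3 of -1.70 (adjusted p = 0.19), Maff, a small MAF factor, of -0.88 (adjusted p = 0.57) and Junb of -0.22 (adjusted p = 0.70). Their blocks overlapped, with library 21 above at least 1 library of 1 to 4 for each. In library 21 Junb was at 2822 CPM, the highest of all libraries, and so was Maff at 240 CPM, while Atf3 was at 903 CPM.

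**Figure D3:**
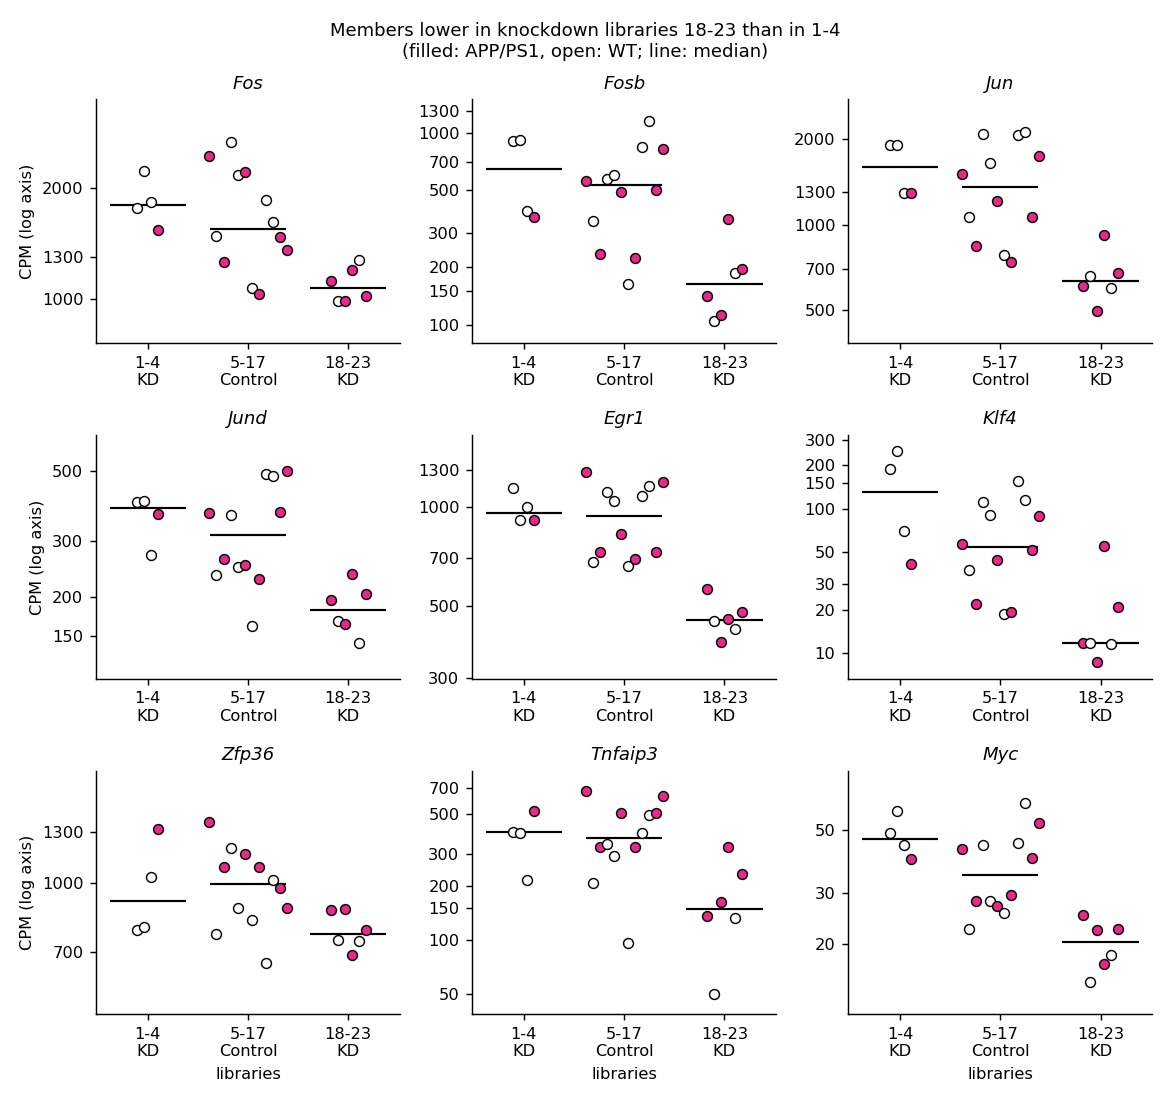
CPM on a log axis of the 9 members called lower in Slc11a2-KD libraries 18 to 23 than in 1 to 4, by number block (horizontal axis); each point is 1 library, filled for APP/PS1 and open for WT, and lines are medians over the block. Egr1 in libraries 18 to 23 (389 to 562 CPM) lies below all Control libraries (663 CPM or more), whereas Zfp36 overlaps between the blocks.

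Egr1, on chromosome 18, encodes a zinc finger factor driven through SRF, and it gave the smallest p of the 34 in this comparison. It was at 1148, 912, 1004 and 914 CPM in libraries 1 to 4, at 389 to 562 CPM in libraries 18 to 23 (median 453 CPM) and at 663 to 1279 CPM in Control (median 938 CPM). All 6 libraries of 18 to 23, WT and APP/PS1 alike, lay below the lowest of the 12 Control libraries, whereas libraries 1 to 4 lay inside the Control range. The level fell to 0.46 times that of libraries 1 to 4 (log2 fold change -1.12 ± 0.20, 95% interval -1.54 to -0.70, adjusted p = 0.00059), and leaving out any Slc11a2-KD library gave -1.22 to -1.05.

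The 2 related EGR factors had the same sign without a call by edgeR. Egr2 had a log2 fold change of -0.73 ± 0.27 (adjusted p = 0.054; DESeq2 -0.68, adjusted p = 0.044) and Egr3 of -1.29 ± 0.53 (adjusted p = 0.083). Egr3 was at 66.1, 56.0, 20.1 and 31.1 CPM in libraries 1 to 4 and at 5.43 to 26.6 CPM in libraries 18 to 23. The NR4A receptors did not pass the test either. Nr4a1 was at 508, 455, 148 and 272 CPM in libraries 1 to 4 and at 61.5 to 306 CPM in libraries 18 to 23 (adjusted p = 0.19). The 95% interval ran from -2.82 to 1.54 for Nr4a2 and from -3.75 to 0.63 for Nr4a3, whose SD of log2 CPM within groups (1.95) was the largest of the 34.

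Myc (chr15:61857227-61862223, plus strand), a growth factor-induced regulator of cell growth, was at 48.9, 58.7, 44.6 and 39.7 CPM in libraries 1 to 4 and at 14.7 to 25.1 CPM in libraries 18 to 23 (median 20.3 CPM). The blocks did not overlap, and 5 of the 6 later libraries lay below the lowest Control library (22.6 CPM; Control median 34.8 CPM), library 23 by a margin that rounding hides. Myc fell to 0.40 times the level (log2 fold change -1.33 ± 0.28, adjusted p = 0.0015). The call held under every alternative run, with values of -1.62 to -1.16 when 1 library was left out.

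Klf4 (chr4:55527139-55532528, minus strand), a Krüppel-like factor of macrophage activation, had the largest fold change of the 9. It was at 188, 248, 70.2 and 41.6 CPM in libraries 1 to 4 and at 8.67 to 55 CPM in libraries 18 to 23 (median 11.8 CPM; Control 18.7 to 154 CPM). Library 21 (55 CPM) overlapped the earlier block, and 4 of the 6 later libraries lay below the lowest Control library. The log2 fold change was -2.87 ± 0.84 (0.14 times the level, adjusted p = 0.014), and leaving out 1 library at a time gave -3.85 (without library 4) to -2.26. The call was lost without library 19 (-2.28, adjusted p = 0.10) and without library 22 (-2.26, adjusted p = 0.13). Klf2 (-1.56, adjusted p = 0.068) and Klf6 (-1.14, adjusted p = 0.0685) had the same sign, and Csrnp1 was at -0.23 (adjusted p = 0.79).

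Among the 4 feedback genes of NF-kB, Tnfaip3 fell and the others were not called, beside 12.7% of all genes called lower. Tnfaip3 (chr10:18874201-18891405, minus strand) encodes A20, a ubiquitin-editing enzyme that ends NF-kB signalling. It was at 399, 396, 216 and 521 CPM in libraries 1 to 4 and at 50.2 to 330 CPM in libraries 18 to 23 (median 149 CPM), with Control at 96.4 to 675 CPM (median 367 CPM). Libraries 21 (330 CPM) and 23 (232 CPM) lay above library 3, so the blocks overlapped. The log2 fold change was -1.65 ± 0.40 (0.32 times the level, adjusted p = 0.0037) and stayed past the threshold in every alternative run. Nfkbiz, an atypical inhibitor of the IkB family, had -1.44 (adjusted p = 0.070; DESeq2 -1.39, adjusted p = 0.048) and Nfkbid -0.60 (adjusted p = 0.40).

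Nfkbia, which encodes the classical inhibitor IkBα, did not follow Tnfaip3. It was at 1868, 1538, 1191 and 2057 CPM in libraries 1 to 4 and at 813 to 4502 CPM in libraries 18 to 23, with a log2 fold change of 0.13 (95% interval -0.62 to 0.89, adjusted p = 0.85). Library 21 (4502 CPM) and library 23 (3192 CPM) were the highest of all 22 libraries, and library 19 (813 CPM) was the lowest.

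The 11 phosphatases, RNA decay and feedback genes held 1 call, Zfp36 (chr7:28076209-28079710, minus strand), beside 12.7% of all genes called lower. It was at 783, 798, 1029 and 1316 CPM in libraries 1 to 4 and at 692 to 876 CPM in libraries 18 to 23 (median 768 CPM; Control 663 to 1370 CPM). The blocks overlapped, since libraries 1 and 2 lay within the range of the later block. The log2 fold change of -0.42 ± 0.15 (adjusted p = 0.0485) was -0.22 without library 4 (adjusted p = 0.505), and the call was also lost without library 3, 20, 21, 22 or 23 (adjusted p 0.057 to 0.12). It was lost as well in 5 of 6 alternatives that removed no Slc11a2-KD library, DESeq2 among them (-0.38, adjusted p = 0.052). A positive sign was found for 3 members of this role, Ier3 (0.45, adjusted p = 0.13), Dusp2 (0.37, adjusted p = 0.40) and Socs3 (0.14, adjusted p = 0.62), and Dusp1 was at -0.07 with a 95% interval of -0.42 to 0.29.

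**Figure D4:**
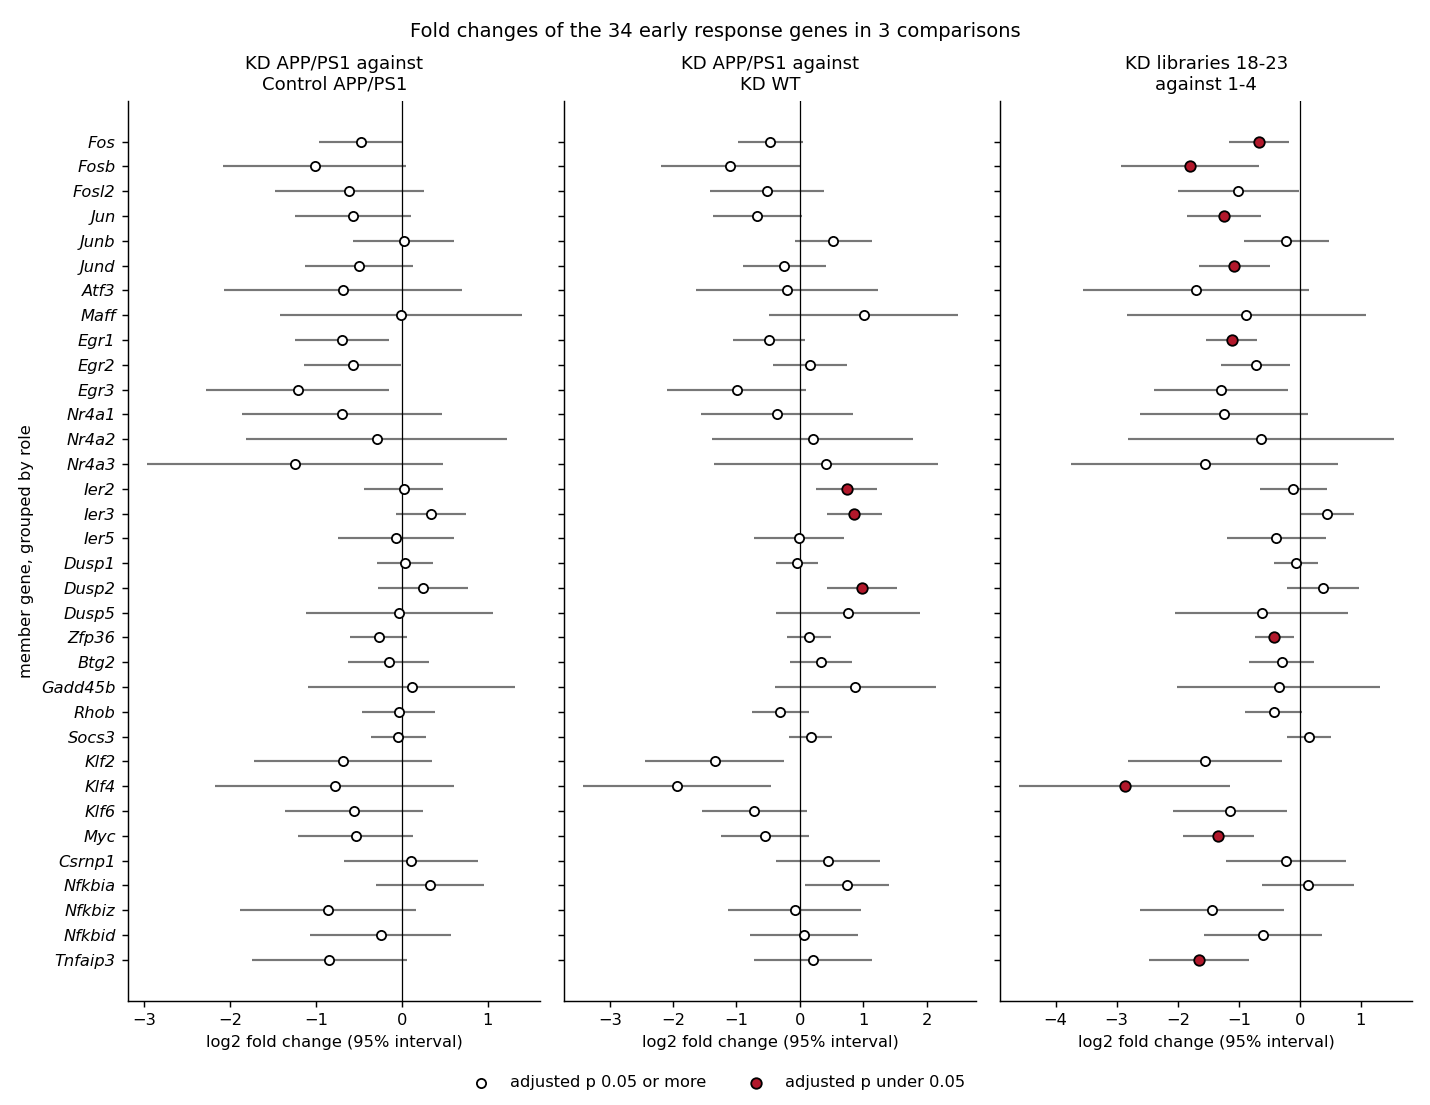
Log2 fold change (point) with its 95% interval (line) of the 34 members, grouped by role, in 3 comparisons; red points have an edgeR adjusted p under 0.05 over all genes. The right panel holds 9 red points, all below 0, the middle panel holds 3, all above 0, and the left panel holds 0.

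The effect of APP/PS1 was asked separately in Control and in Slc11a2-KD mice. In Control, 0 members were called with either tool, beside 10.5% of all genes by edgeR and 15.7% of the 16201 genes to which DESeq2 gave an adjusted p, and 3 had an unadjusted p under 0.05 and were higher (13.3% of genes). These 3 were Ier2 (log2 fold change 0.51 ± 0.21, adjusted p = 0.14), Ier3 (0.42 ± 0.19, adjusted p = 0.16) and Dusp2 (0.55 ± 0.24, adjusted p = 0.16). The median log2 fold change of the 34 was 0.05, against -0.02 over all genes. The 95% intervals of the other members differed in width, for example from -0.40 to 0.21 for Dusp1, from -0.11 to 0.51 for Socs3, from -2.20 to 0.43 for Klf4 and from -0.27 to 2.05 for Gadd45b.

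In Slc11a2-KD mice the same 3 genes were called higher in APP/PS1 than in WT and 0 members were called lower, that is 8.82% of the members beside 16.2% of all genes called, 9.77% called higher and 6.41% called lower. DESeq2 called 4 members higher (these 3 and Nfkbia) and 2 lower (Klf2 and Klf4), beside 16.4% higher and 13.3% lower of the 13297 genes to which it gave an adjusted p. The 2 genotypes were not spread evenly over the number blocks, with 3 of 5 WT but 1 of 5 APP/PS1 libraries in block 1 to 4. Cell type markers were called in the same comparison, with 6 of 11 microglial markers lower (P2ry12 by -1.03 ± 0.12), 2 of 6 border macrophage, 2 of 5 endothelial, 2 of 4 oligodendrocyte and 1 of 6 neutrophil markers lower, and 1 of 5 astrocyte markers higher (Gfap, 3.47 ± 0.42). Their part in the members' differences was not tested. The 34 had a median log2 fold change of 0.03, against -0.07 over all genes, and 17 of 34 had a positive sign.

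Ier3 (chr17:36132568-36133815, plus strand), a stress-induced regulator of cell survival, was at 239, 188, 171, 192 and 369 CPM in Slc11a2-KD WT libraries 1, 2, 3, 19 and 22. In Slc11a2-KD APP/PS1 it was at 338, 355, 345, 624 and 443 CPM in libraries 4, 18, 20, 21 and 23. The 5 APP/PS1 libraries lay above 4 of the 5 WT libraries and overlapped only with library 22. The level was 1.82 times that of WT (log2 fold change 0.86 ± 0.21, adjusted p = 0.0061). It was 0.69 with a term for libraries 18 to 23, still past the threshold, and 0.88 in a fit of these 10 libraries alone (adjusted p = 0.051).

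Dusp2 (chr2:127177957-127180296, plus strand), a phosphatase that acts on MAP kinases in immune cells, was at 126, 77.1, 67.1, 71.9 and 165 CPM in Slc11a2-KD WT. It was at 165, 152, 177, 271 and 234 CPM in Slc11a2-KD APP/PS1, and library 22 was again the WT library within the APP/PS1 range. Dusp2 was at 1.97 times the WT level (log2 fold change 0.98 ± 0.27, adjusted p = 0.014). Without library 21 the value was 0.84 (adjusted p = 0.0503), and with the block term it was 0.84 (adjusted p = 0.063).

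Ier2 (chr8:85387960-85389483, minus strand), an early nuclear factor induced by growth factors, was at 522, 390, 357, 319 and 405 CPM in Slc11a2-KD WT and at 641, 460, 439, 1005 and 779 CPM in Slc11a2-KD APP/PS1. Library 1 overlapped with libraries 18 and 20. The log2 fold change was 0.74 ± 0.24 (1.67 times, adjusted p = 0.035), and the call was lost without library 2, 3, 19, 21 or 23 (0.54 to 0.73, adjusted p 0.070 to 0.14) with the block term (0.79, adjusted p = 0.061) and in a fit of these 10 libraries alone (0.76, adjusted p = 0.069). For none of the 3 was the difference between these genotype effects and those in Control (the interaction) called, with log2 differences of 0.22 for Ier2 (95% interval -0.43 to 0.88), 0.44 for Ier3 (-0.14 to 1.01) and 0.43 for Dusp2 (-0.31 to 1.17).

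**Figure D5:**
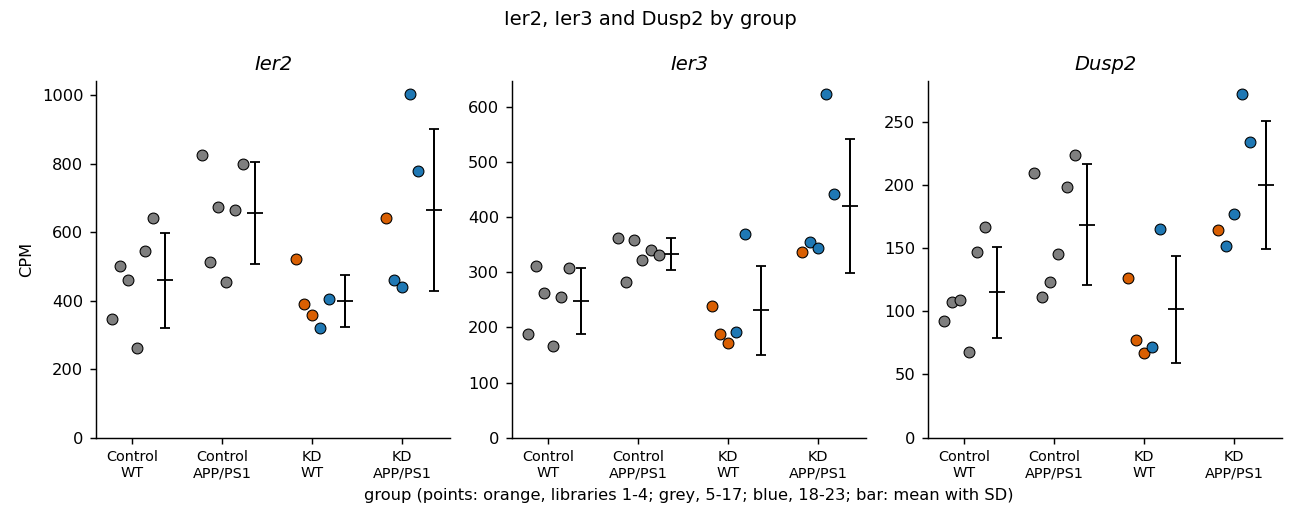
CPM of Ier2, Ier3 and Dusp2 (vertical axes from 0) in the 4 groups; each point is 1 library coloured by number block, and bars give the mean with its SD. In Slc11a2-KD APP/PS1 the mean of Ier3 is 421 CPM against 232 CPM in Slc11a2-KD WT, and libraries 21 and 23 are the highest points of all 3 genes in that group.

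Klf2 and Klf4 were the members with the most negative values in this genotype comparison. Klf2, a Krüppel-like factor that restrains inflammatory transcription, was at 738, 869, 352, 117 and 157 CPM in Slc11a2-KD WT and at 200, 127, 95.6, 324 and 131 CPM in Slc11a2-KD APP/PS1. The high WT libraries were 1, 2 and 3, all of the first block, and WT libraries 19 and 22 lay inside the APP/PS1 range. Klf2 had a log2 fold change of -1.35 ± 0.53 (adjusted p = 0.083; DESeq2 -1.31, adjusted p = 0.046) and Klf4 of -1.94 ± 0.72 (adjusted p = 0.066; DESeq2 -1.90, adjusted p = 0.038). Without library 4, 19 or 22 edgeR called 2 members lower each time, Klf4 with Egr1 in the first case and Klf4 with Klf2 in the other 2. The share of all genes called lower was not counted in these fits.

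Slc11a2-KD was compared with Control within each genotype. In both genotypes this contrast also sets tamoxifen against oil alone and different number blocks against each other, and these cannot be told apart. In WT, 0 of 34 members were called (0% of all genes by edgeR), 0 had an unadjusted p under 0.05 (5.92% of genes), and DESeq2 called 0 members (0.0535% of the 18688 genes with an adjusted p). The median log2 fold change was -0.24 for the members and 0.01 for all genes, and 32 of 34 signs were negative, though the members share libraries and are not independent. The intervals still left room for changes in either direction, for Fos from -0.65 to 0.33 and for Jun from -1.03 to 0.31.

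In APP/PS1, 0 of 34 members were called in Slc11a2-KD against Control by edgeR (0% of all genes) and 0 of the 31 with an adjusted p by DESeq2 (12.7% of the 4575 genes with one). An unadjusted p under 0.05 was reached by 3 members, all lower (9.74% of genes), which were the EGR factors Egr1 (-0.70 ± 0.27, adjusted p = 0.21), Egr2 (-0.57 ± 0.27, adjusted p = 0.24) and Egr3 (-1.21 ± 0.51, adjusted p = 0.21). Egr1 was at 914 CPM in library 4 and at 562, 389, 456 and 478 CPM in libraries 18, 20, 21 and 23, against 695 to 1279 CPM in Control APP/PS1. Library 4 thus lay inside the Control range and the other 4 below it. Without library 4, edgeR called Egr1 (-0.95, adjusted p = 0.023) and Zfp36 (-0.44, adjusted p = 0.046) lower, and the share of all genes was not counted in that fit. The median over the members was -0.38, against 0.01 over all genes. The interaction of knockdown and APP/PS1 gave 0 calls among the members with edgeR (0% of all genes), 0 unadjusted p under 0.05 (9.08% of genes) and 0 calls with DESeq2 (0.134% of the 18688 genes with an adjusted p).

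Libraries 21 and 23, both Slc11a2-KD APP/PS1 of the last block, split the set by gene. Library 21 held the highest CPM of 7 members, Junb, Ier2, Ier3, Dusp2, Nfkbia, Csrnp1 and Maff. On the summed level, the order of libraries depended on the scaling to CPM. The set summed to 27138 CPM but 2.20% of counts in library 21, and to 26804.5 CPM but 2.80% in library 8. The median of all tested genes deviated by -0.20 in library 21 and -0.17 in library 23, the lowest of all libraries. Ranks of single members were not recomputed without the scaling. In library 21 Egr1 was at 456 CPM and Myc at 17 CPM, below all 12 Control libraries, and Zfp36 was at 692 CPM, below 11 of 12. Gadd45b, a stress response gene, was at 78.1 CPM in library 21 and 64.9 CPM in library 23, against 9.27 to 21.6 CPM in the other 3 Slc11a2-KD APP/PS1 libraries. No treatment or genotype in the labels sets these 2 libraries apart from libraries 18 and 20.

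Genes around the set were counted in the comparison of libraries 18 to 23 with 1 to 4, in which 12.7% of all genes were lower and 11.3% higher. Of 32 tested early response genes outside the 34, 5 were lower and 1 higher, a share of lower genes close to that of all genes, with the clock gene Per1 at -2.07 ± 0.26 and the RNA decay factor Zfp36l1 at -1.08 ± 0.21. Of 20 NF-kB and cytokine targets, 1 was lower (Nfkb1, -0.73 ± 0.13) and 0 were higher. Of 21 kinases and factors upstream of the set, 6 were lower, among them the coactivator Crebbp (-1.72 ± 0.37) and Creb1 (-0.43 ± 0.14), and 3 were higher, among them Mapk3 (0.31 ± 0.08) and Map2k1 (0.43 ± 0.09). Of 10 heat shock genes, which respond to warmth and protein damage, 4 were lower, led by Hspa1b (-3.49 ± 0.83) and Hspa1a (-2.73 ± 0.75), and 1 was higher.

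The same lists were counted in the comparison of APP/PS1 with WT in Slc11a2-KD mice, in which 9.77% of all genes were higher and 6.41% lower. Of the 20 NF-kB and cytokine targets, 6 were higher, Cxcl1 (2.45 ± 0.82), Il1b (2.34 ± 0.73), Cxcl2 (2.04 ± 0.45), Ccl3 (1.63 ± 0.35), Ptgs2 (1.61 ± 0.48) and Tnf (1.05 ± 0.36), all inflammatory mediators, and 1 was lower. In Control APP/PS1 against Control WT, Ptgs2 (2.14 ± 0.44), Cxcl2 (1.25 ± 0.41) and Ccl3 (1.11 ± 0.32) were also called higher, and of the same 20 only Ccl2 was called lower. Of the 32 other early response genes, 3 were higher, close to the share of all genes, and 4 were lower. The 3 were the transcriptional repressors Bhlhe40 (2.79 ± 0.38), Nfil3 (1.58 ± 0.38) and Crem (1.26 ± 0.25), which were also called higher in Control APP/PS1 against Control WT (2.36 ± 0.34, 1.5 ± 0.34 and 1.03 ± 0.23). Of the 21 upstream kinases and factors, 2 were higher and 5 lower in the Slc11a2-KD comparison, and of the 10 heat shock genes 2 were higher and 0 lower. Counts for 11 members can also include reads of an overlapping gene of the table on the opposite strand, which the sources used here do not let one separate, and among the members called these were Jun, Jund and Zfp36.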

How the data were processed

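RNA from hippocampal CD11b+ cells was sequenced in 23 libraries. The authors deposited raw counts per gene (trimming with Trim Galore 0.6.7, alignment with STAR, mm39 and DESeq2 1.36.0 are named in the sources; the strand setting of the counting is not given in the sources used here). Library 10 was left out, taken to be the Control APP/PS1 library that the study removed but did not name in its text. It lay 2.16 SD from its group mean on the first principal component. The filter kept the 18759 genes that reached 5 counts in 3 or more of the 22 libraries. The 4 groups entered one edgeR 4.0.16 quasi-likelihood fit with TMM scaling (limma 3.58.1, R 4.3.3), p-values were adjusted by Benjamini-Hochberg over all tested genes, and adjusted p under 0.05 was a call. The blocks of Slc11a2-KD libraries were compared in a fit with a further term for libraries 18 to 23. Values are TMM-scaled CPM, computed here with Python 3.11 and edgeR, and levels between genes were divided by the length of the canonical transcript. Depth ran from 31128643 to 54872491 counts per library. The members and the other gene lists were chosen with earlier results of these data known. Members were described in full where a member and comparison had adjusted p under 0.05, and the rest by range, counts or their values. On data simulated for Control APP/PS1 against Control WT (17820 genes) the fit recovered 9 of 67 genes changed by 0.5 log2 units, 36 of 67 changed by 1 and 50 of 66 changed by 1.5, with 3 false calls. The alternatives were DESeq2 1.42.0, DESeq2 size factors, no filter, only the compared samples, library 10 kept, libraries 12 and 15 left out, a block term, a fold limit and each library left out in turn. Gene positions are GRCm39.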

Additional observations from a re-analysis of the deposited data

Results flagged for a closer look

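Zfp36, which encodes an RNA decay factor, was at 1029 CPM in library 3 of Slc11a2-KD WT, far above the other 4 libraries of that group (743 to 798 CPM). On the log2 scale the gap to the next library was 0.78 of the range of the group. Of 52 member and group combinations tested for such a sample this was the 1 found, and chance gives about 1 in 20.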

How the results depend on the processing

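Recomputed under each alternative, the 12 called values of members gave 195 values, which all kept their direction, were on the same side of the threshold in 160 cases and were no longer past it in 35; those for Egr1, Myc, Jun, Jund and Tnfaip3 stayed past it in all, and the cause of the losses was not tested. The number of members called higher in Control APP/PS1 against Control WT was 1 (Ier3) instead of 0 when only the compared samples were fitted. In Slc11a2-KD APP/PS1 against Slc11a2-KD WT the number higher was 1 with only the compared samples, 1 with a term for libraries 18 to 23, 0 with a log2 fold change above 1 required and 1 to 4 with each library left out (1 without library 21), and the number lower was 2 with DESeq2 and 0 to 2 with each library left out (2 without library 4, 19 or 22). In Slc11a2-KD APP/PS1 against Control APP/PS1 the number lower was 0 to 2 with each library left out (2 without library 4). In libraries 18 to 23 against 1 to 4 the number lower was 5 to 12 (5 without library 22) and the number higher 0 to 1 (1, Ier3, without library 19). Shares of all genes called were counted for the main fit and DESeq2 only. No paired analysis was possible because the labels give no pairing between libraries. The part of depth in the width of the intervals was not tested.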
